A study of Mus musculus with 8 samples.

Results

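The comparison described here sets the libraries numbered 1 and 2 of both genotypes against those numbered 3 and 4, in RNA sequencing of the adult mouse hippocampus. All 8 libraries of the series entered it, 4 on each side. The low-numbered side holds WT 1, WT 2, Kat6a+/- 1 and Kat6a+/- 2, and the high-numbered side holds WT 3, WT 4, Kat6a+/- 3 and Kat6a+/- 4. Each side thus had 2 wild-type and 2 heterozygous libraries, and genotype was kept as a covariate. The sides were chosen by measured values: levels of Fos, Arc and Npas4 in these same libraries differed by replicate number. The differences between the sides are therefore a description of the libraries, given with standard errors and without p-values. The labels name no batch, day, litter, sex or age beyond adult, nor do they say whether the 8 libraries are from 8 animals. What distinguished the low numbers from the high ones in the laboratory cannot be told from them.

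The study asked how loss of a copy of Kat6a, which encodes a histone acetyltransferase of the MYST family, changes transcripts in the hippocampus. WT animals carry both copies, Kat6a+/- animals are heterozygous for an allele that the labels do not describe, and the labels give no treatment for either. Total RNA of hippocampal tissue was sequenced without sorting of cells. In such bulk samples, fewer cells of a type and less RNA per cell cannot be told apart.

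Immediate early genes are switched on within minutes when a neuron fires strongly. Calcium entry and kinase signalling act on factors already bound at their promoters, among them CREB and the serum response factor, so that no new protein has to be made first. Their transcripts are short-lived, and in the hippocampus Fos, Arc and Npas4 are used to mark neurons that were active shortly before the tissue was taken.

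The promoters of 5 of these genes are shown because CREB-type sites are the best known link between activity and their transcription. Each run holds the 250 bases before the transcription start, 5′ to 3′ on the strand of the gene, from RefSeq on GRCm38.p6. Capitals mark TGACG, the core of the cAMP response element, which reads CGTCA where it lies on the opposite strand.
Fos, chr12:85473640-85473889, plus strand: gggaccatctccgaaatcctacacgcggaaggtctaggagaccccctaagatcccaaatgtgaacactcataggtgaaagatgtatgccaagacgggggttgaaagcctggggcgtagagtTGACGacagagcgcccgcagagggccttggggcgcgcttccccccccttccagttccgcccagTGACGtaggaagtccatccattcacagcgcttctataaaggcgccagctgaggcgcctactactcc
Npas4, chr19:4989972-4990221, minus strand: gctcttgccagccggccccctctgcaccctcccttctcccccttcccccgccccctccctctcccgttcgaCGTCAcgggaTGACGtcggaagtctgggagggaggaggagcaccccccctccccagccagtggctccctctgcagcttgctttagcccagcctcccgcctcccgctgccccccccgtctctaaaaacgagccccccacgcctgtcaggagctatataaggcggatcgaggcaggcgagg
Nr4a1, chr15:101266596-101266845, plus strand: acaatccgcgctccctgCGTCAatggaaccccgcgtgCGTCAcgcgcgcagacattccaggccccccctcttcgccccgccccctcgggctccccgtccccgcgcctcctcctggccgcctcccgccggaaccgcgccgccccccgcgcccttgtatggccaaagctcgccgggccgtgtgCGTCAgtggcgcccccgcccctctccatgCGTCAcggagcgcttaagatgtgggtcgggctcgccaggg
Egr4, chr6:85513590-85513839, minus strand: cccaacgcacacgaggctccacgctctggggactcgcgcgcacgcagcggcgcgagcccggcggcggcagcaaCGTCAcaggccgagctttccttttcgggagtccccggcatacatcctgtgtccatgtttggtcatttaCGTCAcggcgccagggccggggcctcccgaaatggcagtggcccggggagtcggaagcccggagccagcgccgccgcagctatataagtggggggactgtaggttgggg
Dusp1, chr17:26508473-26508722, minus strand: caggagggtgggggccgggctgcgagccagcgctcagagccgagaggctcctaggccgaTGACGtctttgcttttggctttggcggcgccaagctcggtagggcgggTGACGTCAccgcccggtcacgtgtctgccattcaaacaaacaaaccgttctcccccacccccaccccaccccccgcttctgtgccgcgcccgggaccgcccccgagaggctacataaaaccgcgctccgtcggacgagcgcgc
Of 24 listed rapid response genes, 20 had a promoter window in the RefSeq table, Arc not among them, and 14 of these held TGACG on either strand. The same letters were in 17.8% of all 32851 windows and in 30.5% of the 10195 tested genes that had a window. A listed or tested gene was counted if any of its windows held the letters, so shares of genes and of windows are unlike units. TGACG was searched after the first motifs had been counted. The full palindrome TGACGTCA, which contains TGACG on both strands, was found for 3 of the 20 genes, Btg2, Dusp1 and Maff. It was in 1.55% of all windows and 3.08% of tested genes. Searched on both strands likewise, the CArG box bound by the serum response factor was found for 1, Egr2, against 1.47% of all windows and 1.37% of tested genes. The Sp1-type letters GGGCGG were found for 17, against 32.7% of all windows and 64.5% of tested genes. Only the 250 bases before the start were searched, so a motif not found for a gene may lie outside them. The shares are descriptions of letters in a window and say nothing on binding in these samples.

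Fos (ENSMUSG00000021250, chr12:85473890-85477273, plus strand), which encodes a subunit of the AP-1 transcription factor, was lower on the high-numbered side in both genotypes. Its level was 8.92 and 9.20 FPKM (fragments scaled to gene length and library size, the authors' unit) in WT 1 and WT 2, and 3.35 and 3.69 FPKM in WT 3 and WT 4. It was 7.15 and 5.93 FPKM in Kat6a+/- 1 and 2, and 3.64 and 3.46 FPKM in Kat6a+/- 3 and 4. The lowest low-numbered library was thus above the highest high-numbered one, and the 4 high-numbered libraries lay close together. The mean was 7.80 ± 1.54 FPKM (SD, n = 4) on the low-numbered side and 3.53 ± 0.157 FPKM (SD, n = 4) on the high-numbered side, or 45.3% of the former. The difference was -1.02 ± 0.10 (SE) on the log2(FPKM + 0.5) scale, -1.25 in WT and -0.79 in Kat6a+/-.

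Arc (ENSMUSG00000022602, chr15:74669083-74672570, minus strand), an effector protein that acts at synapses and is made in recently active neurons, was also lower in every high-numbered library than in any low-numbered one. Its level was 44.8, 63.1, 22.96 and 23.1 FPKM in WT 1 to 4 and 39.5, 32.2, 22.1 and 28.3 FPKM in Kat6a+/- 1 to 4. WT 2 stood highest, and Kat6a+/- 2 and Kat6a+/- 4 were the closest libraries of the sides. The high-numbered mean was 53.7% of the low-numbered one, and the difference was -0.85 ± 0.16 (SE, log2 scale).

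Npas4, a transcription factor induced by calcium entry in neurons, had the largest difference among these genes but overlapped between the sides. It was at 4.45, 6.14, 2.13 and 1.25 FPKM in WT 1 to 4 and at 4.35, 2.51, 1.30 and 2.57 FPKM in Kat6a+/- 1 to 4. Kat6a+/- 2 was just below Kat6a+/- 4, so the heterozygotes did not separate by side, while WT did. The difference was -1.06 ± 0.25 (SE, log2 scale), and the high-numbered mean was 41.5% of the low-numbered mean.

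Nr4a1, an orphan nuclear receptor induced by activity and by hormones, differed by close to the same amount in both genotypes. Its level was 19.2, 20.4, 11.6 and 12.7 FPKM in WT 1 to 4 and 24.1, 19.99, 12.5 and 13.0 FPKM in Kat6a+/- 1 to 4. All 4 low-numbered libraries were at 19.2 FPKM or above and all 4 high-numbered ones at 13.0 FPKM or below. The difference was -0.72 ± 0.06 (SE, log2 scale), -0.68 in WT and -0.76 in Kat6a+/-. Junb, another AP-1 subunit, was at 34.0, 39.6, 24.8 and 24.3 FPKM in WT 1 to 4 and at 35.7, 30.9, 21.4 and 22.3 FPKM in Kat6a+/- 1 to 4. It differed by -0.58 ± 0.06 (SE, log2 scale), also without overlap.

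**Figure D1:**
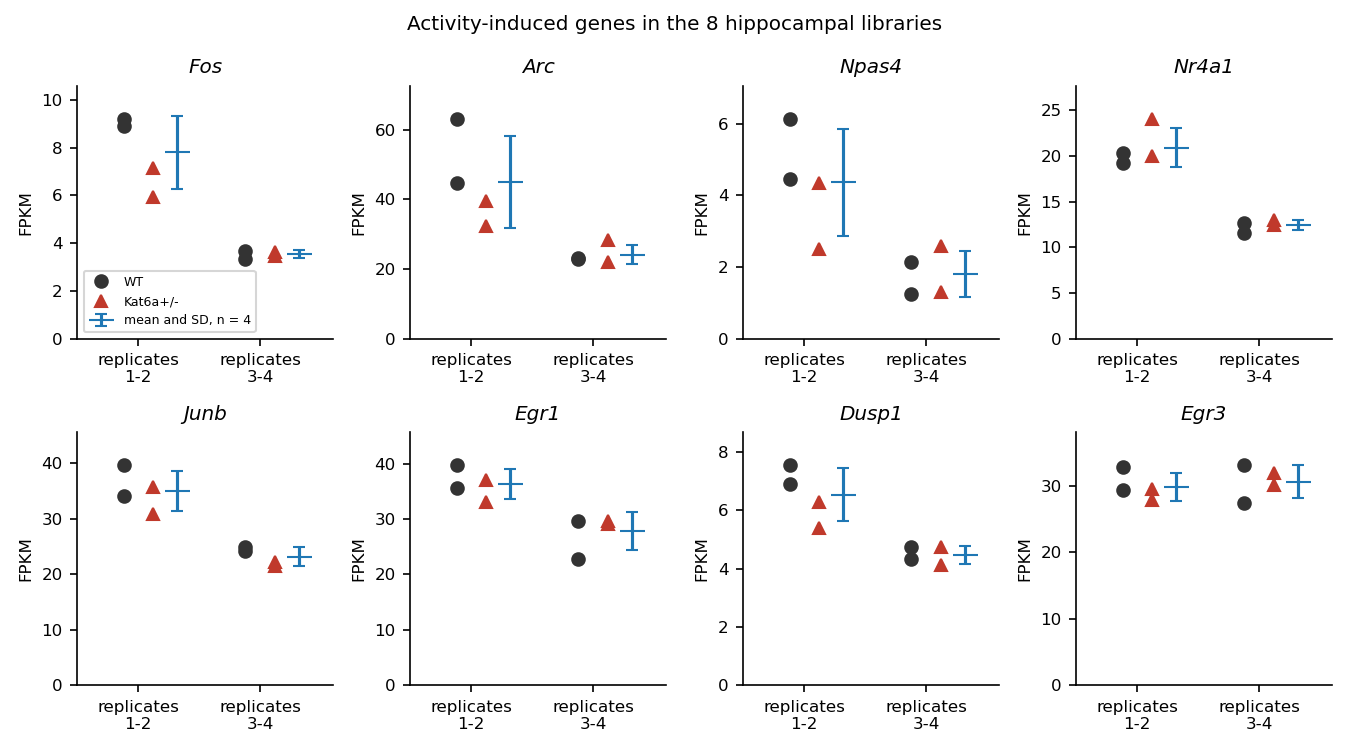
FPKM of 8 activity-induced genes in each library, by side (replicates 1 and 2 left, 3 and 4 right), with circles for WT, triangles for Kat6a+/- and blue bars for the mean and SD of the 4 libraries of a side. Fos, Arc, Nr4a1, Junb, Egr1 and Dusp1 did not overlap between the sides, Npas4 overlapped in Kat6a+/-, and Egr3 was at 27.3 to 33.1 FPKM in all libraries.

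Over the whole list of rapid immediate early genes, 23 of 24 members were tested and Atf3 was below the minimum mean of 0.5 FPKM. Of the 23, 21 were lower and 2 higher on the high-numbered side, with a median difference of -0.34 on the log2 scale. Over all 14159 genes tested, 49.3% were lower and 50.7% higher, with a median of 0.0020. Without overlap were 10 of the 23, each lower; among all genes 3.59% were lower without overlap and 4.22% higher without overlap. The median was -0.49 in WT and -0.25 in Kat6a+/-. When replicate 1 of both genotypes was left out, 19 were lower and 4 higher, 10 were lower without overlap and 1 higher, and the median was -0.29. With fewer libraries non-overlap is easier by construction, so these counts without overlap cannot be set beside the shares above. As the libraries were divided on 3 members of this list, the counts describe the split and support nothing beyond it.

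Members of the family did not behave alike. Among the zinc-finger factors of the Egr family, Egr1 was at 35.6, 39.7, 22.7 and 29.7 FPKM in WT 1 to 4 and at 37.0, 33.1, 29.7 and 29.1 FPKM in Kat6a+/- 1 to 4, a difference of -0.39 ± 0.09 (SE). Egr4 was at 22.9, 29.8, 16.1 and 21.0 FPKM in WT 1 to 4 and at 23.7, 22.3, 17.8 and 18.7 FPKM in Kat6a+/- 1 to 4, a difference of -0.41 ± 0.10 (SE). Both were without overlap, as was Egr2, the least abundant of them, with -0.56 ± 0.18 (SE) at 0.405 to 1.605 FPKM. Egr3, close to Egr1 in level on the per-length scale, differed by 0.03 ± 0.07 (SE). Among AP-1 subunits, Jun was at 26.7 to 30.5 FPKM in all libraries, with -0.05 ± 0.05 (SE), and Fosb differed by -0.15 ± 0.11 (SE) with overlap. Fos and Junb were thus lower on the high-numbered side while Jun overlapped.

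The remaining members without overlap were Cyr61, a secreted matricellular protein, with -0.56 ± 0.12 (SE), Btg2, an antiproliferative cofactor, with -0.30 ± 0.07 (SE), and Dusp1. The growth arrest genes Gadd45b and Gadd45g each differed by -0.34, and Ier2 by -0.35, but 1 or more libraries crossed between the sides. Csrnp1, Fbxo33 and Maff differed by -0.02, -0.01 and -0.06, and Klf4 by 0.19 ± 0.15 (SE), all with overlap. Ier5l, an early response gene outside the list, differed by -0.36 ± 0.05 (SE) without overlap, and Stk40, a kinase-like protein, by -0.31 ± 0.04 (SE).

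Phosphatases that switch off MAP kinases are themselves induced by those kinases. Dusp1, which acts on several MAP kinases in the nucleus, was at 7.54, 6.90, 4.33 and 4.73 FPKM in WT 1 to 4 and at 6.29, 5.41, 4.11 and 4.72 FPKM in Kat6a+/- 1 to 4. The sides did not overlap, and the difference was -0.49 ± 0.08 (SE, log2 scale). Dusp5 and Dusp6, which act on ERK, differed by -0.28 ± 0.06 and -0.25 ± 0.07 (SE), and Spry4, an inhibitor of receptor tyrosine kinase signalling, by -0.22 ± 0.07 (SE), each without overlap. Spry2, Spred1 and Spred3 differed by 0.06, 0.05 and 0.03. Over the feedback list, which also holds Arc and Ier2, 10 of 13 tested members were lower, with a median of -0.22. Lower without overlap were 5, beside 3.59% of all genes, and 1 of the 5 is Arc, on which the sides were chosen.

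The delayed response genes, which need longer activity or new protein, did not follow the rapid ones in their median. Of 24 tested, 16 were higher and 8 lower on the high-numbered side, with a median of 0.04. Bdnf, a neurotrophin, differed by 0.02 ± 0.08 (SE), Nptx2, a secreted pentraxin, by 0.14 ± 0.09 (SE), and Vgf, a secreted neuropeptide precursor, by 0.03 ± 0.05 (SE), with overlap in each. Homer1, a scaffold of the postsynaptic density, was at 13.9, 15.8, 16.0 and 17.5 FPKM in WT 1 to 4 and at 12.9, 13.6, 16.3 and 15.8 FPKM in Kat6a+/- 1 to 4, a difference of 0.22 ± 0.06 (SE) with overlap. Inhba, the activin A subunit, and Sorcs3, a sorting receptor, were higher without overlap, by 0.33 ± 0.10 and 0.19 ± 0.05 (SE). Sik1, Per1, Dusp5 and Dusp6 were lower without overlap, by -0.32, -0.28, -0.28 and -0.25. Lower without overlap were thus 4 of 24, beside 3.59% of all genes, and higher without overlap 2 of 24, beside 4.22%. Leaving out WT 1 moved the median to just below 0, with 11 higher and 13 lower, and leaving out Kat6a+/- 2 or WT 2 moved it to 0.07 and 0.08.

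Outside this programme few genes separated by more than a small amount. By the rule of no overlap and a log2 difference of at least 0.5, 49 genes or 0.346% of those tested separated, 38 lower (0.268%) and 11 higher (0.0777%) on the high-numbered side. Of all genes, 92.4% differed by less than 0.25, and the median SE was 0.0699. Protein-coding genes were 13 of the 38 lower ones and 1 of the 11 higher ones. Of the 13, 6 were the rapid response genes Fos, Arc, Nr4a1, Junb, Cyr61 and Egr2. The other 7 were Rxfp1, Aldh1a2, Nxph4, Myoc, Tnfaip8l2, Sh3bgr and Slc17a6. The noncoding ones were mostly short RNAs, pseudogenes and predicted models with few reads, and 26 of the 49 averaged 1 FPKM or more. Just inside the threshold were Gm6030 and Gm43843 at -0.50 and -0.51, and just outside it Dusp1 and Ddit4l at -0.49 and Rsrp1 and Gm44686 at -0.50. Leaving out 1 library, which makes it easier not to overlap, gave 15 to 22 higher and 41 to 83 lower genes, 41 without WT 1 and 83 without WT 2.

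Among the 7 other coding genes, WT 1 was the highest library for 6. Rxfp1, the relaxin receptor, was at 2.77, 0.977, 0.747 and 0.407 FPKM in WT 1 to 4 and at 1.23, 0.832, 0.668 and 0.542 FPKM in Kat6a+/- 1 to 4, a difference of -0.75 ± 0.26 (SE). Aldh1a2, a retinoic acid synthesising enzyme known from meninges, was at 2.08 FPKM in WT 1 and at 0.456 to 1.22 FPKM in the others. Slc17a6, the vesicular glutamate transporter VGLUT2 of thalamic and subicular neurons, was at 4.52 FPKM in WT 1, and WT 2 (2.53 FPKM) was barely above Kat6a+/- 3 (2.52 FPKM). Myoc, a secreted glycoprotein, was highest in Kat6a+/- 2, at 9.75 FPKM, with 5.64 to 7.85 FPKM in the other low-numbered libraries and 4.26 to 5.01 FPKM in the high-numbered ones. Tnfaip8l2, an immune regulator, was at 1.58 to 2.20 FPKM against 1.08 to 1.28 FPKM, with no single library apart. Without WT 1 the differences of Rxfp1 and Nxph4 were -0.47 and -0.39, short of the threshold, and that of Ddit4l was -0.32.

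Several genes of RNA processing were also lower on the high-numbered side. Rsrp1, an arginine- and serine-rich protein, was at 49.5, 44.7, 33.5 and 35.6 FPKM in WT 1 to 4 and at 54.2, 43.5, 33.6 and 32.1 FPKM in Kat6a+/- 1 to 4. The sides were well apart, with a difference of -0.50 ± 0.07 (SE). Over the list of SR proteins and hnRNPs, which bind pre-mRNA and set splicing, 22 of 27 were lower, 3 of them without overlap beside 3.59% of all genes, with a median of -0.07. Tra2a differed by -0.25 ± 0.05, Srsf11 by -0.19 ± 0.06 and Srsf5 by -0.18 ± 0.06 (SE), and the splicing kinase Clk1 by -0.42 ± 0.11 (SE) with overlap. Over the nuclear long noncoding RNAs 9 of 10 were lower, with a median of -0.26 that was -0.13 without Kat6a+/- 1. Miat was at 20.4, 17.8, 13.2 and 15.8 FPKM in WT 1 to 4 and at 25.3, 17.8, 15.6 and 15.5 FPKM in Kat6a+/- 1 to 4, a difference of -0.41 ± 0.11 (SE) without overlap. Malat1, Meg3 and Snhg11 differed by -0.27, -0.31 and -0.34 with overlap, Kat6a+/- 1 was the highest library for each, and without it Snhg11 differed by -0.21.

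Clock genes leaned in the same direction. Dbp, an output factor of the clock, was at 20.8, 19.5, 16.3 and 15.6 FPKM in WT 1 to 4 and at 22.2, 22.3, 19.0 and 16.8 FPKM in Kat6a+/- 1 to 4. The sides did not overlap, and the difference was -0.32 ± 0.05 (SE). Ciart, a repressor of the clock, differed by -0.38 ± 0.09, Per1, which activity and glucocorticoids also induce, by -0.28 ± 0.07, and Hlf by -0.18 ± 0.07 (SE), each without overlap. Clock itself was higher without overlap, by 0.10 ± 0.04 (SE), and Arntl differed by 0.08 ± 0.09 (SE). Of 19 clock genes 16 were lower and 3 higher, with a median of -0.06. Lower without overlap were 4 of the 19, beside 3.59% of all genes, and higher without overlap 1, beside 4.22%. The median lay between -0.04 and -0.13 as single libraries were left out. It was -0.09 without Kat6a+/- 1, -0.11 without Kat6a+/- 3 and -0.13 without WT 2.

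**Figure D2:**
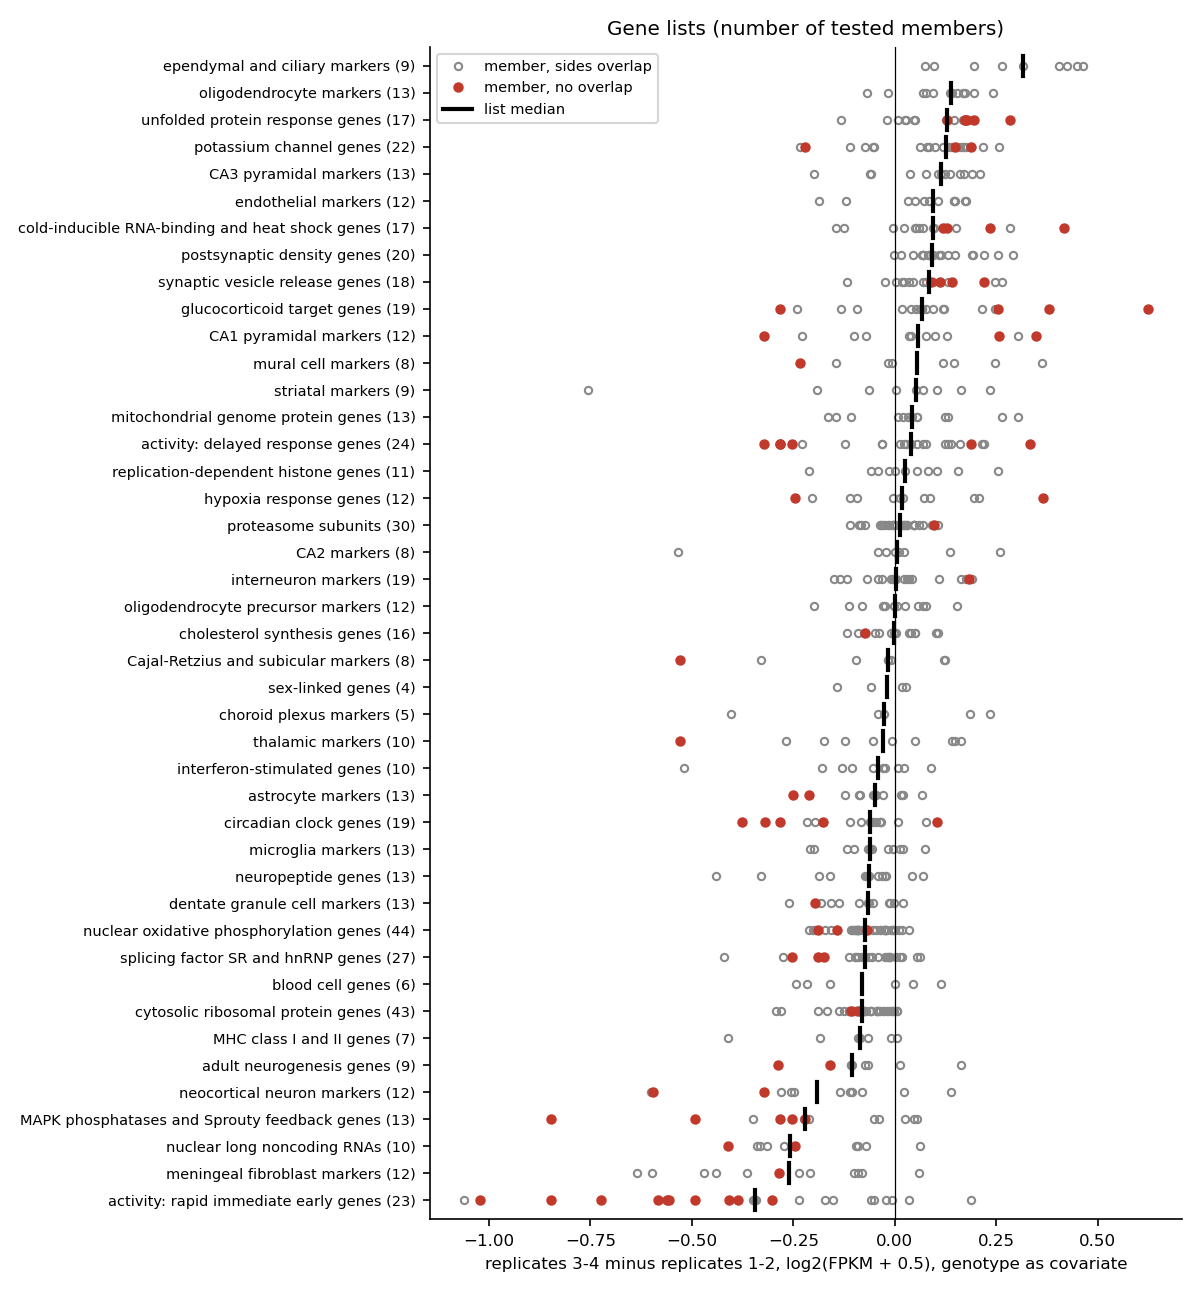
Log2 difference between the sides for the tested members of 43 gene lists, sorted by list median, with the number of tested members in brackets. Red points are members whose 4 and 4 libraries did not overlap, open points are members with overlap, and black ticks are list medians; the rapid immediate early genes have the lowest median, -0.34.

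In the other direction the differences were smaller. Plin4, a lipid droplet protein induced by glucocorticoids, was the only coding gene higher past the threshold, at 1.24, 0.629, 2.20 and 1.31 FPKM in WT 1 to 4 and at 0.806, 0.736, 1.33 and 1.499 FPKM in Kat6a+/- 1 to 4. Its difference was 0.62 ± 0.17 (SE). Zbtb16, a zinc-finger repressor that glucocorticoids induce, was at 13.9, 15.5, 17.1 and 18.3 FPKM in WT 1 to 4 and at 13.0, 15.2, 20.2 and 19.98 FPKM in Kat6a+/- 1 to 4. It differed by 0.38 ± 0.07 (SE) without overlap, as did Fkbp5, a co-chaperone of the glucocorticoid receptor, by 0.25 ± 0.07 (SE). Sgk1 and Tsc22d3, further targets of that receptor, differed by 0.07 and 0.06 with overlap, and Per1, a member of the same list, was lower. Over the glucocorticoid target list 15 of 19 were higher, 3 without overlap (4.22% of all genes were higher without overlap), with a median of 0.07 that was 0.11 without WT 1 and 0.04 without Kat6a+/- 4.

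Several chaperones of the cytosol and of the endoplasmic reticulum were higher on the high-numbered side. Hspa1b, an inducible HSP70, was at 4.13, 5.77, 6.97 and 7.07 FPKM in WT 1 to 4 and at 5.12, 5.49, 7.29 and 6.57 FPKM in Kat6a+/- 1 to 4. All high-numbered libraries were above all low-numbered ones, and the difference was 0.42 ± 0.09 (SE). Its close copy Hspa1a differed by 0.28 ± 0.11 (SE) with overlap, and reads could be split between the pair. Hsph1, an HSP110 co-chaperone, differed by 0.24 ± 0.05, Hspa8 by 0.13 ± 0.04 and Hsp90ab1 by 0.12 ± 0.04 (SE), each without overlap. The cold-inducible Cirbp and Rbm3 differed by -0.12 ± 0.07 and -0.14 ± 0.05 (SE). Of the 17 listed heat shock and cold-inducible genes 14 were higher, 4 without overlap beside 4.22% of all genes, with a median of 0.09.

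Of 17 unfolded protein response genes 15 were higher, 6 of them without overlap beside 4.22% of all genes, with a median of 0.13. Pdia4, a disulfide isomerase of the endoplasmic reticulum, was at 13.8, 14.9, 16.4 and 18.8 FPKM in WT 1 to 4 and at 14.0, 13.0, 15.5 and 17.6 FPKM in Kat6a+/- 1 to 4. Its difference was 0.28 ± 0.06 (SE). Calr, a calcium-binding chaperone, differed by 0.20 ± 0.05, Hyou1 by 0.18 ± 0.06, Hsp90b1 and Dnajb11 each by 0.17 ± 0.05 and Herpud1 by 0.13 ± 0.04 (SE), all without overlap. The stress effectors Atf4 and Ddit3 differed by -0.13 ± 0.06 and 0.03 ± 0.06 (SE), both with overlap.

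Other genes higher without overlap had varied roles. Cpm, a carboxypeptidase, was at 1.88, 2.01, 2.84 and 3.03 FPKM in WT 1 to 4 and at 2.25, 2.56, 2.94 and 3.06 FPKM in Kat6a+/- 1 to 4, a difference of 0.38 ± 0.07 (SE). Slc2a1, the glucose transporter of the blood-brain barrier, differed by 0.37 ± 0.09 (SE), with 0.17 in WT and 0.56 in Kat6a+/-. Epyc and Layn, an extracellular proteoglycan and a hyaluronan receptor, differed by 0.48 ± 0.13 and 0.47 ± 0.11 (SE) at 0.698 to 1.81 FPKM. Chrm5, a muscarinic receptor, differed by 0.36 ± 0.10, and Gpr161, a receptor enriched in CA1, by 0.35 ± 0.11 (SE), or 0.23 without WT 1. Sh3rf1, Alg9, Itpk1, Endod1 and Thumpd1 differed by 0.18 to 0.29, with SE of 0.04 to 0.06.

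Genes of the synapse were mostly higher by small amounts. Of 18 synaptic vesicle release genes 16 were higher, with a median of 0.08. Higher without overlap were 4 of the 18, Sv2b, Syt1, Syn2 and Syp, beside 4.22% of all genes. Syt1, the calcium sensor of release, was at 186, 189, 201 and 208 FPKM in WT 1 to 4 and at 179, 198, 207 and 211 FPKM in Kat6a+/- 1 to 4, a difference of 0.14 ± 0.04 (SE). Of 20 postsynaptic density genes 19 were higher, with a median of 0.09 that was 0.14 without WT 2. Grin2b, an NMDA receptor subunit, differed by 0.29 ± 0.08 (SE), but none of the 20 was without overlap. Of 22 potassium channel genes 16 were higher, with a median of 0.13 that was 0.08 without Kat6a+/- 1. Higher without overlap were 2 of the 22, beside 4.22% of all genes, and lower without overlap 1, beside 3.59%. The lower one was Kcnj4, an inward rectifier, by -0.22 ± 0.06 (SE).

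Genes of protein synthesis and respiration were lower by small amounts. Of 43 cytosolic ribosomal protein genes 41 were lower, with a median of -0.08 that was -0.05 without WT 1; 2 were lower without overlap, a share near the 3.59% of all genes. Of 44 nuclear oxidative phosphorylation genes 40 were lower, with a median of -0.07 that was -0.03 without WT 4; 3 were lower without overlap, beside the same 3.59% of all genes. Uqcrq, a subunit of complex III, differed by -0.19 ± 0.04 and Cox7a2, of cytochrome oxidase, by -0.14 ± 0.04 (SE). Without replicate 1 of both genotypes the medians of the ribosomal and the respiratory list were both -0.03. The proteins that the mitochondrial genome encodes went the other way in 10 of 13, with a median of 0.04 that ran from -0.01 without WT 2 to 0.08 without Kat6a+/- 2. Of 30 proteasome subunits 17 were higher and 13 lower.

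The median difference between the sides varied with gene length and base composition, but not every library followed its side. The 11342 protein-coding genes averaging 1 FPKM or more were put into 5 equal bins. The bin of the shortest genes (27 to 2560 bases) had a median difference of -0.03 and that of the longest (7816 to 41155 bases) one of 0.05. The share of genes lower on the high-numbered side was 64.3% in the shortest bin and 29.7% in the longest. By transcript GC content the median was 0.02 in the lowest bin and -0.02 in the highest. Against this, WT 3 deviated from the mean of its genotype by 0.03 in the shortest bin and -0.02 in the longest, and Kat6a+/- 2 by 0.03 in the lowest GC bin and -0.03 in the highest. The rapid response genes have a median length of 2743 bases and a median GC content of 56.0%, which fall in the bin of 2561 to 3838 bases and the most GC-rich bin, with medians of -0.01 and -0.02. The part of length and composition in the differences of any list was not tested.

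**Figure D3:**
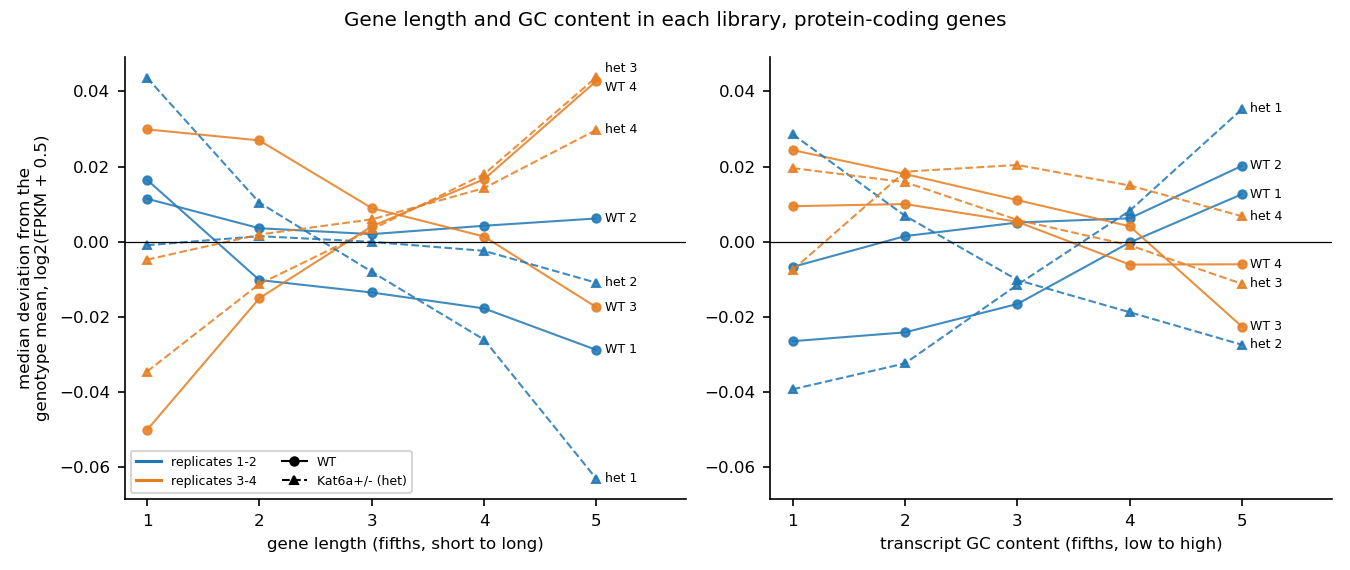
Median deviation of each library from the mean of its genotype, on the log2(FPKM + 0.5) scale, over 5 equal bins of gene length (left) and of transcript GC content (right) of protein-coding genes; blue lines are replicates 1 and 2, orange lines 3 and 4, circles WT and triangles Kat6a+/-. Kat6a+/- 1 is lowest for long genes and WT 4 and Kat6a+/- 3 are highest, while by length WT 2 and Kat6a+/- 2 are nearly flat and WT 3 falls; by GC content Kat6a+/- 2 falls from 0.03 to -0.03 and Kat6a+/- 1 rises from -0.04 to 0.04.

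Libraries WT 1 and Kat6a+/- 1 stood apart from the others of their genotype. On the first principal component of the values centred by genotype, which held 29.8% of the variance of 12096 genes, WT 1 was at -0.63, Kat6a+/- 1 at -0.45 and Kat6a+/- 2 at -0.16, while WT 2 was at 0.03 and the 4 high-numbered libraries were at 0.24 to 0.36. Depth was 16462428 to 27875310 reads a library and overlapped between the sides. Reads of the mitochondrial genome were 3.90% to 4.69%. The number of genes at 0.5 FPKM or more was 14278 to 14482 on the low-numbered side and 14122 to 14255 on the high-numbered side, without overlap. All 8 libraries carried Ddx3y, a Y-linked gene, at 10.4 to 12.1 FPKM and Xist at 0.0270 FPKM or less. Markers of the hippocampal fields were present in every library, among them C1ql2 of dentate granule cells at 29.8 to 43.9 FPKM and Fibcd1 of CA1 at 35.7 to 54.8 FPKM.

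Markers of tissue beside the hippocampus moved with single libraries, meningeal and neocortical ones with WT 1 and choroid plexus ones with Kat6a+/- 2. The summed level of 14 meningeal fibroblast markers was 28.9 FPKM in WT 1 and 13.8 to 18.7 FPKM in the other 7. Of 12 tested, 11 were lower on the high-numbered side, with a median of -0.26 that was -0.07, with 5 higher and 7 lower, without WT 1. The summed level of 14 neocortical neuron markers was 86.7 FPKM in WT 1 and 74.9 to 82.2 FPKM in the others, and their median of -0.19 was -0.07 without WT 1. The summed level of 12 choroid plexus markers was 161 FPKM in Kat6a+/- 2 and 30.1 to 48.8 FPKM in the others, of which Ttr, the transthyretin made by that epithelium, was 119 FPKM. The median of the 5 tested choroid markers was -0.03, and ran from -0.11 without WT 1 to 0.26 without Kat6a+/- 2. Without WT 1, the rapid response list had 21 of 23 lower and a median of -0.32, and without Kat6a+/- 2 it had 20 lower and a median of -0.43.

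Cell types of the hippocampus itself differed little in a common direction. Of 13 dentate granule cell markers 12 were lower, with a median of -0.07 that was -0.12 and -0.11 without Kat6a+/- 4 and 1 and -0.04 without WT 2 or WT 3, and Plk5 was without overlap at -0.20 ± 0.06 (SE). Of 13 CA3 markers 10 were higher, with a median of 0.12 that was 0.06 without WT 1, and of 12 CA1 markers 8 were higher, with a median of 0.06 that was 0.02 without Kat6a+/- 3, 0.03 without WT 1 and 0.10 without Kat6a+/- 4. The 19 interneuron markers had a median of 0.00, and Nos1 was higher without overlap by 0.18 ± 0.06 (SE). Pcp4, a calmodulin regulator marking CA2 and dentate cells, was at 13.5, 13.1, 10.01 and 6.46 FPKM in WT 1 to 4 and at 9.41, 10.4, 7.61 and 7.38 FPKM in Kat6a+/- 1 to 4, a difference of -0.53 ± 0.12 (SE) with overlap. Of 13 astrocyte markers 10 were lower, with a median of -0.05 that was -0.01 without WT 1 and -0.12 without WT 2. Lower without overlap were 2 of the 13, beside 3.59% of all genes. These were the astrocyte factor Sox9 and the neurotensin receptor Ntsr2, by -0.25 ± 0.05 and -0.21 ± 0.04 (SE). Of 9 tested adult neurogenesis genes 7 were lower and 2 higher, with a median of -0.11, or -0.23 in WT and -0.05 in Kat6a+/-. Lower without overlap were 2 of the 9, Sox11 and Dcx, beside 3.59% of all genes. Sox11, of young neurons, was at 2.64 to 3.15 FPKM against 2.11 to 2.51 FPKM, a difference of -0.29 ± 0.06 (SE). Dcx differed by -0.16 ± 0.09 (SE), or -0.09 without WT 1, with 1.58 FPKM in WT 2 just above 1.57 FPKM in Kat6a+/- 3.

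All 9 tested ependymal and ciliary markers were higher on the high-numbered side, with a median of 0.32 and overlap in each. Their list holds 12 genes, and its summed level was 9.43, 12.8, 18.9 and 13.3 FPKM in WT 1 to 4 and 17.3, 15.4, 17.6 and 21.3 FPKM in Kat6a+/- 1 to 4. WT 1 was the lowest and Kat6a+/- 4 the highest. Of 12 endothelial markers 10 were higher, with a median of -0.06 in WT and 0.25 in Kat6a+/-; over all, the median of 0.09 was 0.05 without Kat6a+/- 1, 0.03 without Kat6a+/- 4 and 0.15 without WT 1. Interferon-stimulated genes had a median of -0.04, between -0.03 and -0.09 as single libraries were left out, and MHC genes one of -0.08, between -0.03 and -0.11. The remaining lists had small medians, several of which changed sign as single libraries were left out. Blood cell genes had a median of -0.08, from -0.16 without Kat6a+/- 2 to 0.04 without Kat6a+/- 1, and thalamic markers one of -0.03, from -0.08 without Kat6a+/- 1 to 0.03 without WT 1. Neuropeptides were at -0.06, from -0.12 without WT 3 to -0.03 without Kat6a+/- 4, and microglia markers at -0.06, or -0.03 without Kat6a+/- 2. Mural cell markers were at 0.06, from 0.02 without Kat6a+/- 4 to 0.13 without WT 1, and striatal markers at 0.05, or 0.01 without WT 2 or WT 3. Cajal-Retzius, sex-linked, cholesterol synthesis, oligodendrocyte precursor, CA2, hypoxia response and histone genes had medians between -0.02 and 0.02, and between -0.10 and 0.08 as single libraries were left out.

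**Figure D4:**
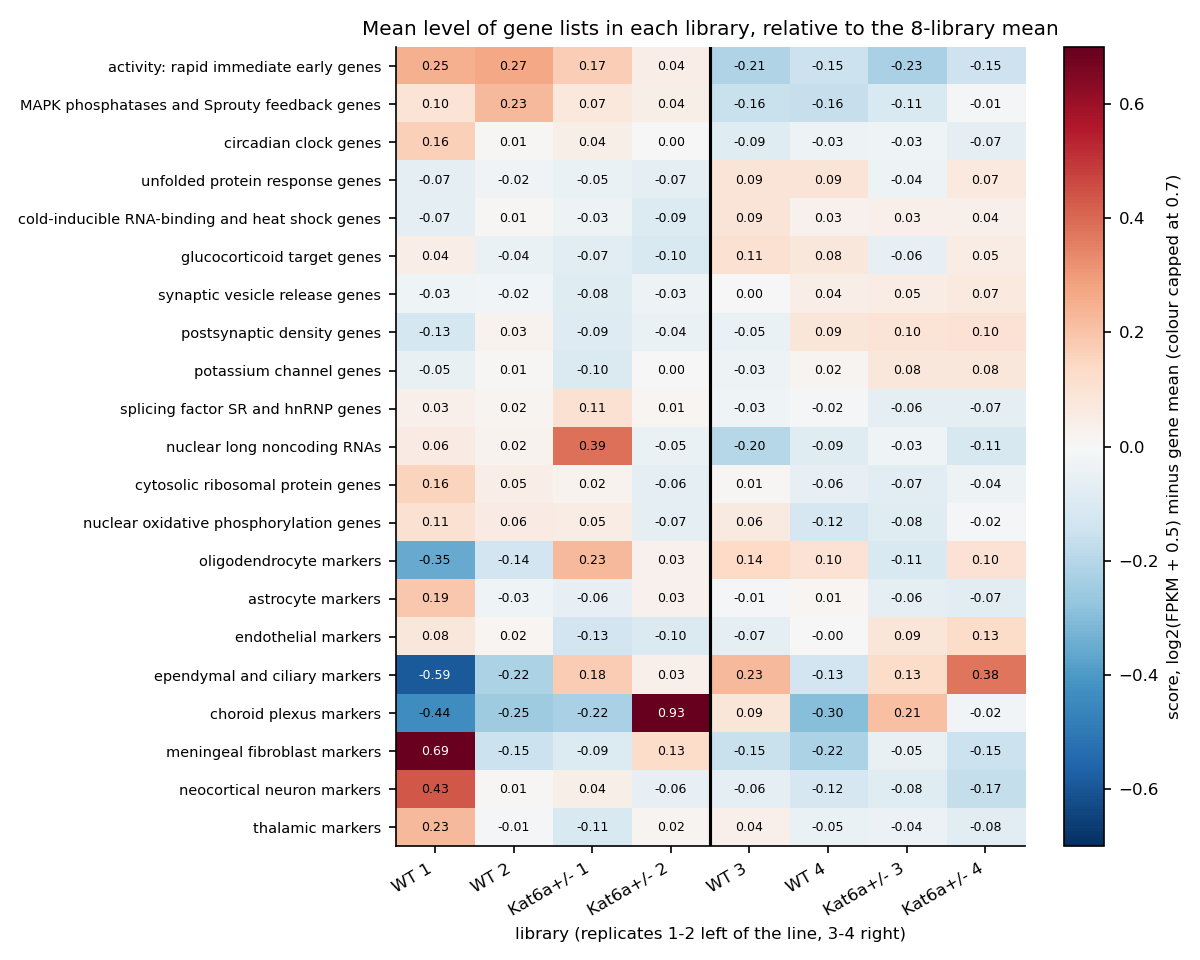
Score of 21 gene lists in each library, the mean over tested members of log2(FPKM + 0.5) minus the gene's mean over the 8 libraries, with the low-numbered libraries left of the line and the high-numbered ones right. The rapid immediate early genes are positive in the 4 libraries on the left (0.04 to 0.27) and negative in the 4 on the right (-0.23 to -0.15), while oligodendrocyte, meningeal and choroid plexus scores vary with single libraries.

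The 2 genotypes provide separate sets of libraries, so the side difference was also taken in each alone. Across 14159 genes the difference in WT and that in Kat6a+/- had a Pearson r of 0.15 and a Spearman rho of 0.24, and 60.3% of genes had the same sign. This is a description across genes, which are not independent replicates and share each library's composition. The 49 genes past the threshold had the same direction in both genotypes, which the rule of no overlap fixes. Of the 23 rapid response genes, Amigo3 was at 0.17 in WT and -0.51 in Kat6a+/-, while Fos, Arc and Npas4 differed more in WT than in Kat6a+/-.

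Whether the side difference depended on genotype was tested by the interaction term, over all genes, with limma and Benjamini-Hochberg adjustment. For Fos the interaction was 0.46 on the log2 scale, the difference being smaller in Kat6a+/-, with an unadjusted limma p of 0.00955 and an adjusted p of 0.974. For Arc it was 0.69 (unadjusted limma p of 0.0256, adjusted p of 0.974), and for Amigo3 -0.69 (unadjusted p of 0.0178, adjusted p of 0.974). These were the 3 of 23 rapid response genes with an unadjusted p under 0.05, and over all genes the share was 4.73%. For Npas4 it was 0.72, with an unadjusted limma p of 0.162. None of the list passed after adjustment. As the sides were chosen on Fos, Arc and Npas4, the interaction values of these genes describe the split and support nothing beyond it.

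The lone gene past the threshold (0.00706% of those tested) was Mir128-1, a microRNA precursor gene of 70 bases. It was at 1.41, 1.73, 4.52 and 4.73 FPKM in WT 1 to 4 and at 3.47, 2.73, 0 and 0 FPKM in Kat6a+/- 1 to 4, an interaction of -4.15 with a limma adjusted p of 0.000463. These levels rest on few reads of a very short gene, and edgeR and limma-voom on the recovered reads called no gene (705 and 684 at an unadjusted p under 0.05). DESeq2 called 5, among them Adcy1, Ndrg1, Prr18 and the myelin gene Mobp.

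Oligodendrocyte markers had medians of opposite sign in the genotypes. Mobp, a basic protein of myelin, was at 72.2, 83.8, 112 and 109 FPKM in WT 1 to 4 and at 113, 102, 91.8 and 107 FPKM in Kat6a+/- 1 to 4. It was higher on the high-numbered side by 0.50 in WT and lower by -0.11 in Kat6a+/-, an interaction of -0.62 with a limma adjusted p of 0.831. The list median was 0.38 in WT and -0.11 in Kat6a+/-. An unadjusted limma interaction p under 0.05 was found for 12 of 13 members, beside 4.73% of all genes, and none passed adjustment in limma. The sum over the list was 722, 835, 1055 and 1030 FPKM in WT 1 to 4 and 1092, 967, 872 and 1036 FPKM in Kat6a+/- 1 to 4. WT 1 and WT 2 were the lowest libraries. The overall median of 0.14 was 0.03 without WT 1, 0.09 without WT 3 and 0.24 without Kat6a+/- 1 or Kat6a+/- 3.

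**Figure D5:**
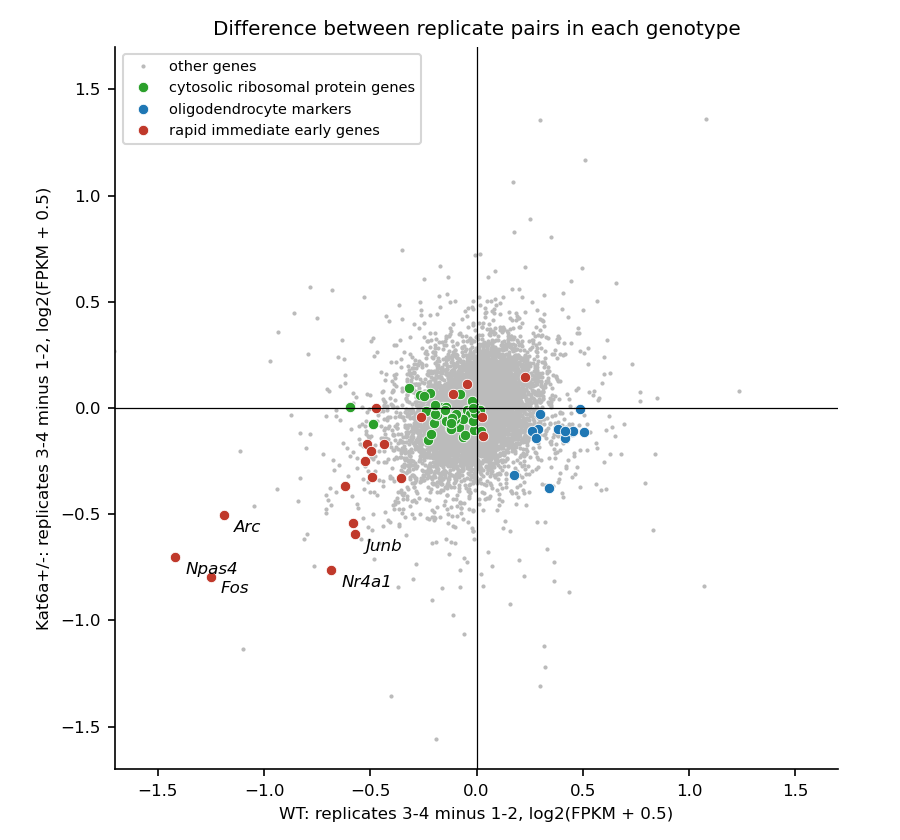
Difference between replicates 3 and 4 and replicates 1 and 2 in WT (horizontal) and in Kat6a+/- (vertical), log2(FPKM + 0.5), for 12096 genes of at least 200 bases and 1 FPKM, of which 1 lies outside the axes. Fos, Arc, Npas4, Nr4a1 and Junb lie at the lower left, below 0 in both genotypes, and the oligodendrocyte markers lie to the right of 0 in WT and at or below 0 in Kat6a+/-.

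Since the sides are balanced over genotype, the genotype comparison can be read with the side held constant. Kat6a itself was at 9.35, 8.97, 8.55 and 9.71 FPKM in WT 1 to 4 and at 6.06, 7.64, 7.32 and 7.06 FPKM in Kat6a+/- 1 to 4. It did not overlap between the genotypes and differed by 0.03 ± 0.07 (SE) between the sides. Its genotype difference of -0.36 ± 0.07 (SE) had an unadjusted limma p of 0.000848 with side as a covariate and 0.000513 without it, and an adjusted p of 0.733 with it. Rspo2, the Wnt agonist named in the study's title, was at 5.31, 3.56, 3.97 and 3.82 FPKM in WT 1 to 4 and at 3.45, 3.51, 3.19 and 2.47 FPKM in Kat6a+/- 1 to 4. The WT libraries were all above the Kat6a+/- ones, by a margin of 3.56 against 3.51 FPKM, and its genotype difference was -0.35 ± 0.11 (SE), with an unadjusted limma p of 0.014 with side and 0.021 without, and an adjusted p of 0.885 with it.

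With side as a covariate no gene passed the limma threshold for genotype, as without it. An unadjusted p under 0.05 was found for 772 genes (5.45%) with side and 624 without, of which 596 were shared, and the median SE of the genotype difference was 0.0699 and 0.0750. The smallest p among genes lower in Kat6a+/- belonged to Gm25654, Hpcal1, a neuronal calcium sensor, and Lhx6, an interneuron lineage factor, and among those higher to Gm45027, Gm17066 and Gm9800. edgeR and limma-voom on the recovered reads also called none (815 and 804 unadjusted), and DESeq2 called Dio3, Etnppl, Hpcal1, Kat6a and mt-Tp. Without overlap between the genotypes were 371 genes (2.62%). By the descriptive rule that also asks for a difference of at least 0.5, 21 genes (0.148%) separated the genotypes, 10 higher (0.0706%) and 11 lower (0.0777%) in Kat6a+/-, against 49 between the sides. The median absolute difference over all genes was 0.073 between the sides and 0.052 between the genotypes. As the sides were chosen by values of these libraries and genotype was not, these figures do not rank side against genotype.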

How the data were processed

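Total RNA of hippocampal tissue was sequenced in 8 libraries, 4 WT and 4 Kat6a+/-, per the labels. Per the labels' protocols Trizol extraction and DNase treatment came before library preparation with the NEBNext Ultra II kit. STAR 2.5, HTSeq, DESeq2 and the build GRCm38 (mm10) are named in the submitters' processing notes; whether counting used strand is not given in the sources used here, so overlapping genes may share reads. The authors deposited FPKM per gene and library, and read counts for 605 genes in a second deposited table. FPKM multiplied by gene length and 1 constant per library gave whole reads for 100% of values (tolerance 0.01), equal to the deposited counts for 605 of 605 genes. These recovered reads give the depths and the count tests.

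limma 3.58.1 (R 4.3.3) was fitted to log2(FPKM + 0.5) with genotype and side as terms and a trended prior, on the 14159 genes averaging 0.5 FPKM or more; a second fit added their interaction. A log2 difference on this scale understates the change of low genes. Tests were two-sided with Benjamini-Hochberg adjustment over all genes and a threshold of 0.05. They were made for genotype and interaction, never for side, since side differences chose the split; these are described by overlap of the 4 and 4 libraries and by size. Alternatives were edgeR 4.0.16 (quasi-likelihood), DESeq2 1.42.0 and limma-voom on recovered reads, other pseudocounts and filters, another scaling, and leaving out libraries. The fits were tested on simulated reads. P-values reflect only how these libraries vary, which may be technical.

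Fos, Arc and Npas4 were always named, then up to 12 coding genes a direction by size and 8 by ratio to SE, of at least 1 FPKM and without overlap, up to 4 members a list past the rule or 2 by ratio, and the genes of the genotype and interaction tests. Some genes that this rule names are not reported here. Further genes were named because a count or library rests on them, or to show a family whole, after their values were seen. The split, the members and the 43 lists were chosen with earlier results of these data known.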

Additional observations from a re-analysis of the deposited data

Results flagged for a closer look

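Within a genotype, a library far from the other 3 was found for 11 of 246 groups of 4 examined, over the named genes and library-wide measures; by chance about 1 in 20 groups is expected to show one. Most fell on replicate 1 of either genotype. In WT 1, Ddit4l was at 3.33 FPKM (1.49 to 1.56 in the other WT libraries), Nxph4 at 1.54 FPKM, Hpcal1 at 24.1 FPKM (18.3 to 19.1) and Kl, the klotho gene, at 2.01 FPKM, the last of them low. In Kat6a+/- 1, Kl was low at 2.77 FPKM, Hmgcs1, of cholesterol synthesis, low at 37.3 FPKM (42.6 to 43.0 in the others), and Eif2s3y, a Y-linked gene, high at 8.24 FPKM. In WT 3, the choroid plexus genes Ttr and Clic6 were high at 15.5 and 0.809 FPKM, and Gm45027 was at 1.16 FPKM and at 0 in the other WT libraries. In Kat6a+/- 2, Ttr was at 119 FPKM (9.49 to 20.5 in the others).

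The side difference of Mir128-1 had opposite signs in the genotypes, higher on the high-numbered side in WT and at 0 in Kat6a+/- 3 and 4; its interaction of -4.15 (log2) had a limma adjusted p of 0.000463.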

How the results depend on the processing

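Against 11 higher and 38 lower genes, the counts between the sides (no overlap and a log2 difference of at least 0.5) were 5 and 21 among genes averaging 1 FPKM or more, 18 and 68 with no filter, 23 and 74 with a pseudocount of 0.1, and 6 and 20 with a pseudocount of 1. They were 65 and 195 at a minimum difference of 0.25, 3 and 9 at 1, and 597 and 508 with none. Leaving out 1 library gave 15 to 22 higher and 41 to 83 lower; without replicate 1 of both genotypes, an alternative chosen after seeing the data, they were 46 and 70. With fewer libraries, non-overlap is easier by construction. Another scaling, no genotype covariate and centring by genotype left both counts within 1.5 times. For genotype, limma called 0 genes (772 unadjusted) and DESeq2 5; no other alternative called any. Whether replicate numbers pair the samples cannot be told from 4 correlations. Same-numbered libraries correlated at 0.24, -0.11, 0.05 and 0.14, 2 of 4 over 0.1, and not every library correlated best with its own number. With a replicate block in place of side, 0 genes passed (770 unadjusted). For the interaction, limma called 1, DESeq2 5, edgeR 0, limma-voom 0 and a pseudocount of 0.1 gave 3 (Mir128-1, Mir6392, DQ267102); leaving out 1 library gave 1 to 2. The cause of these differences was not tested. Under the alternatives 638 list medians and 1649 values of named genes moved by less than 1 SD, and 7 and 6 by more. With 4 libraries a side and 2 per genotype and side, depth and number limit what short or low genes can show.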
